A study of Mus musculus with 14 samples.

Results

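Haematopoietic stem cells were taken as cells passing a fixed marker gate among lineage-negative, Tomato-positive (Lin- Tom+) mouse cells. Tom is the label of an inducible lineage tracing of endogenous stem cells in adult mice at steady state, so a Tom+ cell is a stem cell or the progeny of one. A gated cell was chosen by its own counts. At least 3 of the stem cell genes Hlf, Mecom, Mllt3, Sult1a1, Procr, Pdzk1ip1 and Ifitm1 had to exceed 10 counts in it, and no more than 1 of the lineage genes Pf4, Gp1bb, Klf1, Ermap, Ly86, Cebpe, Mcpt8 and Prss34 could. Of 1010 cells with at least 500 genes and 10000 counts, 379 (37.52%) passed, and the other 631 cells of the same plates were the comparison.

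Single cells had been sorted into 96-well plates and sequenced at transcript 3′ ends with a modified Smart-seq2. The 14 plates came from 5 mice, and the mouse was the replicate. Mouse m4539 was sampled at day 3 and gave 171 gated of 190 kept cells. Mouse m4533 was sampled at day 10 and gave 66 of 107. Mice m4528, m605 and m606 were sampled at day 17 and gave 80 of 288, 16 of 143 and 31 of 189. One further day 17 plate held cells of m605 and m606 together, with 15 gated of 93, and entered no test by mouse. All groups shared the Lin- Tom+ sort and the tracing, and no untraced or treated group was analysed here. The sources used here do not give the event from which days are counted, the promoter that drove the tracing or the ages of the mice. Day 3 and day 10 rest on 1 mouse each, so a day and a mouse cannot be told apart there.

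Haematopoietic stem cells sit at the top of the blood system. They divide rarely, renew themselves, and give rise to multipotent progenitors and, through these, to megakaryocytes, erythroid cells, granulocytes, monocytes and lymphocytes. Among the gate genes, Hlf, Mecom and Mllt3 encode nuclear regulators known for roles in stem cell maintenance, Procr encodes the endothelial protein C receptor used to sort stem cells, and Ifitm1 encodes an interferon-induced membrane protein. Pf4 and Gp1bb are megakaryocyte genes, Klf1 and Ermap erythroid genes, Ly86 a monocyte and dendritic cell gene, Cebpe a neutrophil gene, and Mcpt8 and Prss34 basophil protease genes.

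Gated cells had fewer counts than the other cells of the same mouse. The limits of the gate are in counts, so the rule itself bears on depth, and its part in this difference was not tested. The median gated cell held 122780 counts in m4539, 258126 in m4533, 93058 in m4528, 51311 in m605 and 60449 in m606. The other cells held medians of 161408, 559294, 215724, 141210 and 139724. The first count table holds m4539, m4533 and m4528 and the second holds m605, m606 and the mixed plate. The same 96 well barcodes recur on every plate, so cells were identified by plate and barcode together. Plate 9 of m4528 stood apart, with 4 gated of 70 cells against 29.41% to 39.02% on that mouse's other plates. The gated cells of m4528 held 0.2238 CPM (CPM being a gene's counts summed over cells and scaled to their total) of Xist and 136.3 of the Y-linked gene Eif2s3y, against at least 201.8 of Xist and at most 0.4842 of Eif2s3y in the other mice.

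Promoter letters are shown for the immediate early genes, because 9 of them were higher together in the gated cells of all 5 mice. These genes are switched on within minutes of a stimulus, in many cells through factors that bind the cyclic AMP response element. Of the 9 immediate early genes that passed the test in gated cells, 7 were in the RefSeq promoter table (GRCm38.p6), and the 250 bases before each start were searched on both strands. The full element TGACGTCA was in 2 of the 7 windows, those of Dusp1 and Ppp1r15a, against 1.77% of 27025 genes. Its 6-letter core TGACGT, which overlaps the full element, was in those 2 and in Fos, so in 3 of 7 against 7.29% of genes. The CArG box, taken as CC, 6 letters of A or T, then GG, was in 0 of the 7 and in 1.62% of genes. Letters beyond these 250 bases were not searched, and Egr1 and Ier2 were not in the promoter table. A box farther from the start would thus be missed. A match here is a description of letters and not a bound site. The 3 windows with the core are printed 5′ to 3′ in the direction of the gene, with the core or the full element in capitals. They lie at chr12:85473640-85473889 on the plus strand for Fos, chr17:26508473-26508722 on the minus strand for Dusp1 and chr7:45526269-45526518 on the minus strand for Ppp1r15a.
Fos: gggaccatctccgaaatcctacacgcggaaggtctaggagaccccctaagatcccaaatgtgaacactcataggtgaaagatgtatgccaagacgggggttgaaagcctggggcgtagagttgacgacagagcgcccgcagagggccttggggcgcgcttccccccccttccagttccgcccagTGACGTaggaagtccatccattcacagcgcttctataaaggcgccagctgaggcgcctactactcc
Dusp1: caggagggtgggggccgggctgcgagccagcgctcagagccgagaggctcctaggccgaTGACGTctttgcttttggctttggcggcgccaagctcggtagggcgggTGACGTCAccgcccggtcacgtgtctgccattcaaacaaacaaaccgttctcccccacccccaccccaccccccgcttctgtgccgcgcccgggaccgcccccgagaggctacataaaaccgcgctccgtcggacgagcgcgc
Ppp1r15a: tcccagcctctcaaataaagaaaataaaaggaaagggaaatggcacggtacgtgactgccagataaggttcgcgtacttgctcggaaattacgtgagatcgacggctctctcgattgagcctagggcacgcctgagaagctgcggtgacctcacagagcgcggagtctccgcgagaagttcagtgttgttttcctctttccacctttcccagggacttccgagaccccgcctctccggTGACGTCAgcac

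The share of gated cells was highest at day 3 and lowest at day 17. It was 90.0% in m4539 at day 3 (exact binomial 95% interval 84.82% to 93.87%), on plates at 90.43% and 89.58%. At day 10 it was 61.68% in m4533 (51.78% to 70.92%), with plates from 58.06% to 66.67%. At day 17 it was 27.78% in m4528 (22.68% to 33.34%), 11.19% in m605 (6.532% to 17.53%) and 16.4% in m606 (11.42% to 22.47%), a mean of 18.46% ± 8.483 (SD, n = 3). Every mouse of day 17 was below both earlier mice. The day 17 mean minus the mean of the earlier mice was -57.38 percentage points. An exact two-sided permutation test over the 5 mice gave p = 0.1, the smallest value that 3 mice against 2 allow. These intervals cover counting error only. Without plate 9, m4528 stood at 34.86%. When cells were kept on 500 genes alone, the share of m4533 was 15.38% and the exact p was 0.2, so the place of day 10 depended on the minimum of 10000 counts.

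**Figure D1:**
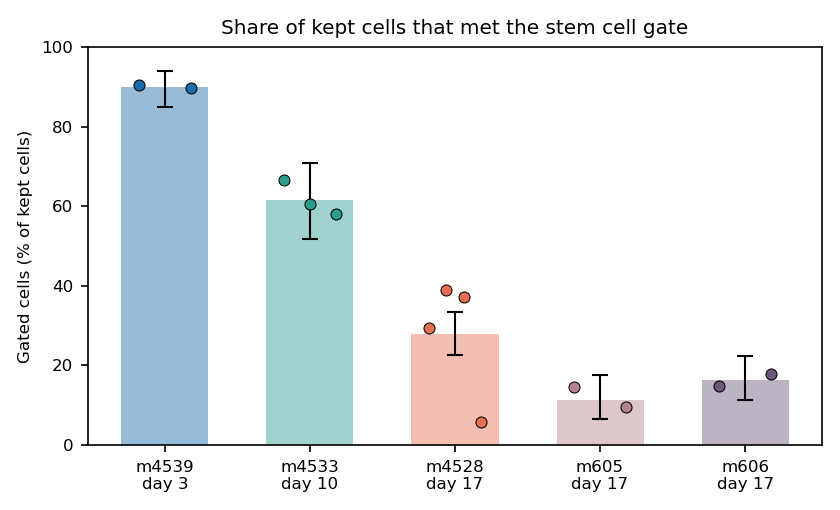
Share of kept cells that passed the gate (percent, vertical axis) for each mouse in order of day. Bars give the share per mouse with its exact 95% binomial interval and points give single plates; the bar of day 3 stands at 90.0% and those of day 17 between 11.19% and 27.78%.

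The gate genes themselves are described without a test, since they chose the cells. Ifitm1 was above 10 counts in 98.94% of gated cells, Pdzk1ip1 in 78.36%, Mllt3 in 74.93%, Hlf in 56.73%, Sult1a1 in 56.46%, Mecom in 36.41% and Procr in 21.11%. Hlf, a transcription factor gene, stood at 323.1, 488.4, 450.3, 378.6 and 311.8 CPM in the gated cells of m4539, m4533, m4528, m605 and m606, the order used from here on. Its level in the other cells was 72.48, 64.41, 31.58, 3.109 and 12.47 CPM, so the other cells of the earlier mice carried more Hlf than those of day 17. Sult1a1, a sulfotransferase gene, stood at 1175, 1431, 801.6, 452.5 and 749 CPM in gated cells against 247, 106.1, 78.24, 2.74 and 18.64 CPM in other cells. Mecom, a zinc finger factor gene, ranged from 22.97 CPM in m605, where 1 of 16 gated cells passed 10 counts, to 322.1 CPM in m4533. Ifitm1 was highest in m605, at 2795 CPM, and lowest in m4533, at 564.1 CPM.

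Most gated cells passed with a margin of genes on the stem side and none on the lineage side. Exactly 3 stem genes were above 10 counts in 112 gated cells, 4 in 120, 5 in 101, 6 in 40 and all 7 in 6. The mean number per gated cell was 4.357, 4.152, 4.025, 3.625 and 4.29 by mouse, against 3.053, 2.585, 1.433, 0.8425 and 1.259 in other cells. At least 5 stem genes were held by 43.86%, 31.82%, 32.5%, 12.5% and 38.71% of the gated cells. No lineage gene was above 10 counts in 302 gated cells and 1 was in 77, which was Pf4 in 41, Prss34 in 21, Gp1bb in 10, Klf1 in 3 and Mcpt8 in 2. The Pf4 cells came mainly from m4533 (20) and m4539 (11), and the Prss34 cells mainly from m4528 (15).

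Cells on either side of the limits are given as values. With 2 stem genes and at most 1 lineage gene, 68 cells lay just outside, and 61 more had at least 3 stem genes but 2 lineage genes. In the cells with exactly 3 stem genes Hlf was above 10 counts in 41.96% and stood at 253.8 CPM. In the 68 cells just outside it was above 10 counts in 14.71% and stood at 137 CPM. Ly86 was above 10 counts in 0 of those 112 cells and in 6 of the 68.

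**Figure D2:**
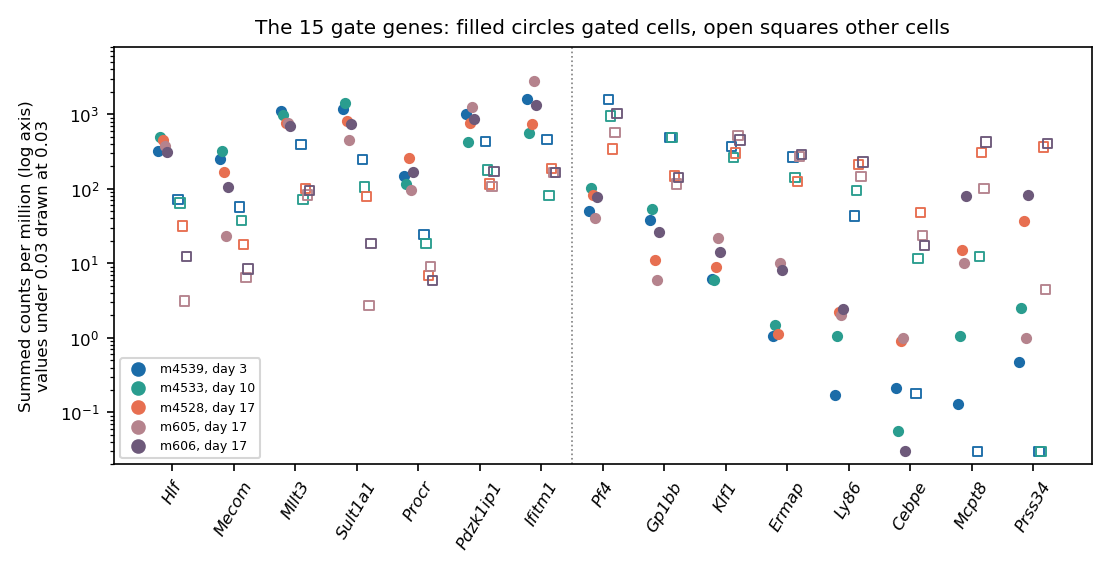
CPM of the summed counts (log axis) of the 15 gate genes in each mouse, filled circles for gated and open squares for other cells, values under 0.03 drawn at 0.03. The 7 stem genes stand higher and the 8 lineage genes mostly lower in gated cells, which the rule itself sets; Hlf, for example, lies between 311.8 and 488.4 in gated cells.

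Outside the gate genes, 13414 genes were tested between gated and other cells in edgeR with the mouse as a block. At an adjusted p under 0.05, 133 genes (0.992%) were higher and 214 (1.6%) lower in gated cells, and 2629 had an unadjusted p under 0.05. The gate selects on counts of 15 genes in the same cells, so genes that vary with these had to differ. The values below therefore describe the gated cells, and the directions of lineage genes follow in part from the rule. The median log2 fold change over all genes was -0.15, against which the list medians are to be read. The number of calls rested on single mice: it was 66 without m4539, 2 without m4533, 6 without m4528, 349 without m605 and 25 without m606. Within the day 17 mice alone edgeR called 0 genes, with 2118 at an unadjusted p under 0.05 and a lowest adjusted p of 0.0599, and DESeq2 on all 5 mice called 2397. All 84 called genes under the naming rule kept their direction under each alternative in which they were tested, which was 18 to 20 of 20.

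Stem cell genes that the gate did not use stood higher in gated cells in most cases. Of 27 tested, 24 had positive fold changes and 6 passed, all higher, with a list median of 1.96 on the log2 scale. Ly6a, which encodes the Sca-1 antigen used to sort stem and progenitor cells (chromosome 15, 74994877 to 74998031, minus strand), stood at 161.8, 195, 237, 430.5 and 285.6 CPM in gated cells and at 44.7, 6.705, 28.4, 22.78 and 21.93 CPM in other cells. The groups did not overlap, and all 5 mice showed the difference (log2 fold change 3.59, SE 0.51, edgeR adjusted p 0.02233). Per cell the difference was smaller in the day 3 mouse: at a depth thinned to 20000 counts, Ly6a was detected in 31.58% of both its gated and its other cells, against 41.94% and 10.76% in m606. Ltb, which encodes lymphotoxin beta, stood between 22.27 and 54.1 CPM in gated cells and between 1.134 and 3.615 in other cells (log2 fold change 3.74, adjusted p 0.02233). Hacd4 (2.14) and Cd81 (0.66), a tetraspanin gene, were also higher, with adjusted p of 0.03144 and 0.03916.

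Several classical stem cell markers did not pass. Vwf, the von Willebrand factor gene that marks platelet-biased stem cells, stood at 44.81, 29.26, 11.3, 43.95 and 24.69 CPM in gated cells and at 50.4, 138.7, 15.55, 13.74 and 44.01 CPM in other cells, so the groups overlapped (log2 fold change -0.42, edgeR adjusted p 0.7927). Slamf1, which encodes CD150, had a log2 fold change of 1.21 with an adjusted p of 0.3919 and was detected in 10.85% of thinned gated cells and 9.149% of thinned other cells. Kit, the stem cell factor receptor gene, was higher in 5 of 5 mice without passing (1.02, adjusted p 0.06771). Of 25 cytokine and growth factor receptor genes tested, 0 passed, and their median was 0.56.

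Transcription factors of stem cells were led by the Hoxa cluster. Of 24 tested, 22 were positive and 5 passed, all higher, with a median of 1.19. Hoxa10 (chromosome 6, 52231197 to 52240854, minus strand) stood at 122.6, 137.4, 62.68, 52.94 and 182.5 CPM in gated cells against 26.53, 20.29, 5.387, 10.72 and 11.48 CPM in other cells. No gated value reached down to the other cells (log2 fold change 2.99, SE 0.41, edgeR adjusted p 0.0206). Its neighbours Hoxa9 (1.85, adjusted p 0.03995) and Hoxa7 (1.5, adjusted p 0.04092) were higher in 5 of 5 mice, though the groups overlapped for Hoxa9. Lmo2 and Lyl1, partners in a stem cell transcription complex, were higher by 0.95 each (adjusted p 0.03783 and 0.0305). Lmo2 ranged from 1200 CPM in m605 to 2818 CPM in m4533 in gated cells and from 735.4 to 1782 CPM in other cells. Meis1, a Hox cofactor gene, was higher in 5 of 5 mice with an adjusted p of 0.05118 (1.46), and Gata2 with 0.1168 (0.95).

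The Gimap genes, a cluster of immunity-associated GTPase genes on chromosome 6, were positive in 7 of 7 tested, with a median of 2.89. Gimap6 and Gimap1 also stand in the stem cell list. Gimap6 (48701582 to 48708225, minus strand) stood at 955.3, 1045, 1149, 1031 and 705.9 CPM in gated cells, a narrow range across days. In other cells it stood at 379.5, 181.3, 182.1, 66.1 and 51.7 CPM, and no value reached the gated ones (log2 fold change 2.89, SE 0.44, edgeR adjusted p 0.02761). Per cell the difference was small in m4539. At the thinned depth, Gimap6 was detected there in 92.98% of gated and 89.47% of other cells, against 90.32% and 31.65% in m606. Gimap1 (2.45, adjusted p 0.0283) and Gimap9 (1.31, adjusted p 0.04564) passed too. The other genes of this list had positive fold changes and did not pass.

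Of 20 immediate early genes tested, 18 were positive and 9 passed, all 9 higher in gated cells in 5 of 5 mice, with a median of 1.43. Egr1, a zinc finger factor gene, stood at 673.4, 374.2, 499.7, 1378 and 990.6 CPM in gated cells against 159.6, 70.09, 105.5, 142.6 and 226.5 CPM in other cells, without overlap (log2 fold change 2.45, SE 0.25, edgeR adjusted p 0.01197). The share of cells with Egr1 did not follow this in m4539. At the thinned depth, Egr1 was detected there in 75.44% of gated and 78.95% of other cells. In each of the remaining mice the gated share was higher, as with 87.1% against 63.92% in m606. Dusp1, a phosphatase gene that limits MAP kinase signals and whose window held the full element, stood at 1452, 994.6, 1443, 2716 and 3759 CPM in gated cells against 526.8, 323.8, 651.7, 1294 and 1115 CPM in other cells (1.44, adjusted p 0.008478). Fos, with the core alone, stood at 797.3, 193.2, 1175, 3236 and 5048 CPM against 164.9, 55.25, 605.9, 1477 and 1790 CPM (1.56, adjusted p 0.01542). Its level in the other cells of the second table exceeded its level in the gated cells of the first, so the groups overlap across mice though not within one.

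Junb (1.69), Ppp1r15a (1.62), Ier3 (1.75), Klf6 (1.5), Ier2 (1.34) and Jun (1.21) made up the rest of the immediate early genes that passed, with edgeR adjusted p from 0.01542 to 0.04839. Ier2 stood apart in every mouse, at 2505, 1495, 2137, 2918 and 2632 CPM in gated cells against 808 to 997.2 CPM in other cells. The list's summed level ran from 5429 to 27470 CPM in gated cells and from 2393 to 7980 in other cells. Both ranges were highest in the second table. Heat shock genes were negative in 9 of 13, and 1 passed, Hspe1 (-1.34, adjusted p 0.03783).

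**Figure D3:**
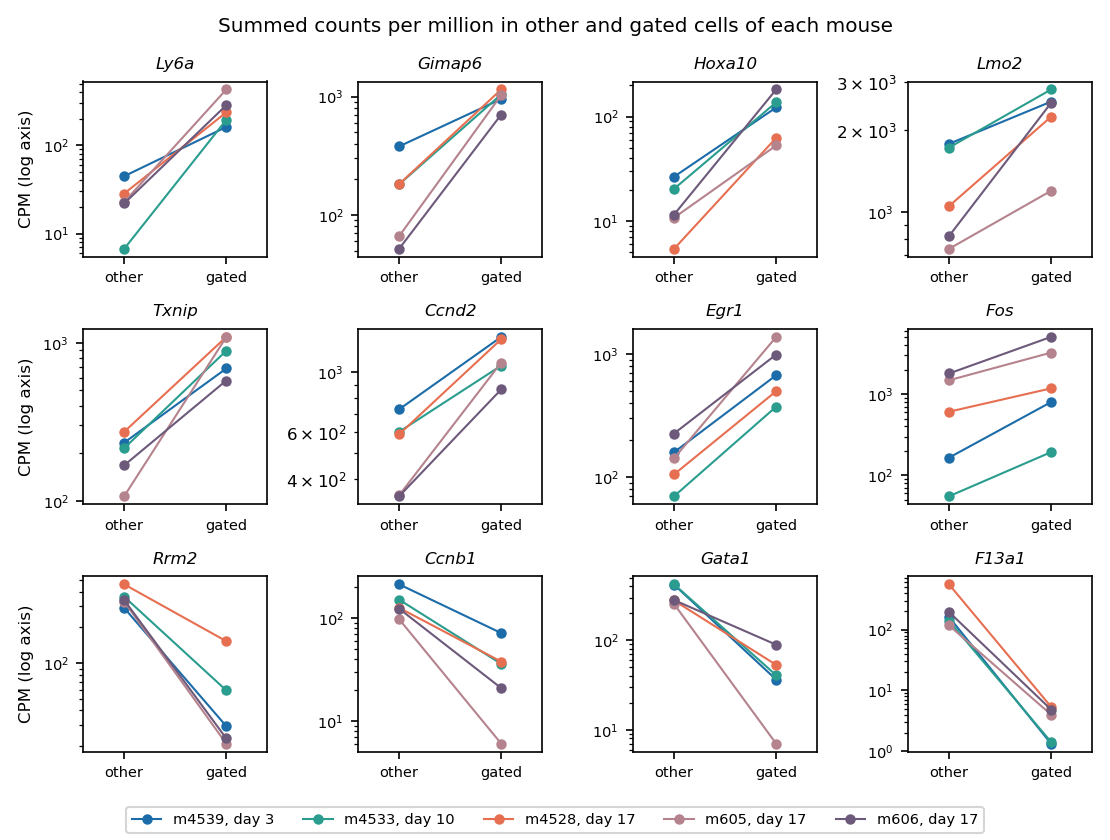
CPM of the summed counts (log axis) of 12 genes in other and gated cells, 1 line for each mouse. The lines of Ly6a, Gimap6, Hoxa10, Lmo2, Txnip, Ccnd2, Egr1 and Fos go up from other to gated cells in all 5 mice and those of Rrm2, Ccnb1, Gata1 and F13a1 go down.

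Interferon response genes leaned higher in gated cells. Of 30 tested, 26 were positive and 2 passed, with a median of 1.0. Gbp2, a guanylate-binding protein gene, stood at 265.9, 315.3, 249, 44.95 and 77.95 CPM in gated cells against 129.8, 53.33, 55.97, 20.66 and 20.45 CPM in other cells (1.80, edgeR adjusted p 0.03348). Irf1, an interferon regulatory factor gene, was also higher (1.61, adjusted p 0.04629). Of 9 class II antigen presentation genes 0 passed. Cd74, the invariant chain gene, stood between 13.56 and 59.93 CPM in gated cells and was higher in 5 of 5 mice (3.38, adjusted p 0.05888). Of the 5 Ifitm genes tested outside the gate, 0 passed.

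Genes of DNA replication and mitosis were lower in gated cells. All 35 S phase genes tested had negative fold changes, with a median of -1.85, and 6 passed. Rrm2, the small subunit gene of ribonucleotide reductase, stood at 29.46, 58.97, 153.1, 20.98 and 23.24 CPM in gated cells against 291.7, 362.7, 461, 329.8 and 339.7 CPM in other cells (log2 fold change -3.03, SE 0.38, edgeR adjusted p 0.01816). The gated cells of m4528 were the highest of the gated groups and still below every other group. Fen1 (-2.05), Nasp (-2.69), Tyms (-1.65), Tipin (-1.60) and Mcm6 (-1.31) passed too. Of 44 genes of G2 and M phase, 42 were negative and 5 passed, with a median of -2.07. Ccnb1, the cyclin B1 gene, stood at 71.57, 35.88, 37.72, 5.993 and 20.82 CPM against 213.5, 151.4, 126.1, 97.72 and 123.8 CPM (-2.29, adjusted p 0.03155). Mki67, the gene of the proliferation antigen Ki-67, was lower in 5 of 5 mice but did not pass (-3.16, adjusted p 0.07616), with 144.5 CPM in the gated cells of m4528 and at most 48.89 in those of the other mice.

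Cell by cell, fewer gated cells carried cycle genes. At 20000 counts per cell, at least 2 of Mki67, Top2a, Ccnb1, Ccna2 and Birc5 were detected in 13.45%, 18.18%, 16.25%, 46.67% and 22.58% of gated cells, and in 52.63%, 41.46%, 60.58%, 66.12% and 70.89% of other cells. The mean difference was -34.91 percentage points (SD 12.85, n = 5), lower in 5 of 5 mice, with an exact two-sided sign-flip permutation p of 0.062, the smallest that 5 mice allow. With 1 of the 5 genes sufficing, the mean difference was -21.03 points. The highest gated share, in m605, rests on the 15 of its 16 gated cells that held 20000 counts. Gated cells also held fewer genes at that depth. They held 1937, 1704, 1806, 2115 and 2586 genes per cell against 2484, 2578, 2590, 2973 and 3355, a mean difference of -766.1 genes (SD 130.8, n = 5; exact p 0.062, the smallest possible).

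Genes that restrain or start the cycle were mixed. Txnip, a thioredoxin-binding protein gene that restrains glucose uptake and growth, stood at 688.3, 892.1, 1091, 1089 and 577.6 CPM in gated cells against 233.3, 215.3, 273.2, 106.8 and 167.7 CPM in other cells (2.16, SE 0.31, edgeR adjusted p 0.02374). It was the 1 gene of 16 inhibitor and quiescence genes that passed. Cdkn1c, the p57 inhibitor gene, was higher in 5 of 5 mice, from 120.6 to 388.4 CPM in gated cells against 2.904 to 75.23 CPM in other cells (3.17, adjusted p 0.07015). Among 10 cyclin and kinase genes of cycle entry, Ccnd2 was higher and Ccne1 lower. Ccnd2, a D-type cyclin gene, stood at 1354, 1059, 1328, 1087 and 863.7 CPM against 727.8, 600.4, 587.7, 348.5 and 345.6 CPM, without overlap (1.20, adjusted p 0.02622). Ccne1, the cyclin E1 gene of S phase entry, stood between 0.4717 and 7.991 CPM in gated cells and between 74.73 and 112.6 CPM in other cells (-5.43, adjusted p 0.02898). Cdk6 was lower in 5 of 5 mice without passing (-1.78, adjusted p 0.1201).

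Nuclear genes of mitochondrial respiration leaned lower in gated cells. Of 90 tested, 83 were negative, with a median of -0.60 against -0.15 for all genes, and 8 were lower and 1 higher at the threshold. Cox5a, a cytochrome c oxidase subunit gene, stood at 370.5, 167, 207.3, 324.6 and 432.8 CPM in gated cells against 601.6, 416.7, 498.9, 1511 and 1137 CPM in other cells (-1.35, edgeR adjusted p 0.0206). Cox7a2l, which encodes a factor of respiratory supercomplex assembly, was the 1 higher gene (0.77, adjusted p 0.0345). Transcripts of the mitochondrial genome summed to 14900 to 27560 CPM in gated cells and 11540 to 22040 CPM in other cells, higher in 5 of 5 mice, and its mt-Rnr2 passed (0.68, adjusted p 0.03484). Of 21 glycolysis genes, Aldoc was higher (3.49, adjusted p 0.03675) and Ldha lower (-0.71, adjusted p 0.03807). Of 81 ribosomal protein genes, whose reads can also fall on processed pseudogenes, Rps9, Rpl4 and Rps3 were higher and Rps27l lower, with a list median of -0.07.

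Among lineage genes that the gate did not use, erythroid, neutrophil, monocyte and dendritic cell genes gave most of the lower calls. Of 20 erythroid genes 9 were lower and 0 higher, with a median of -2.63. Gata1, the erythroid and megakaryocyte factor gene, stood at 36.32, 40.64, 53.05, 6.992 and 89.08 CPM in gated cells against 417.8, 421.1, 277.9, 254.1 and 280.8 CPM in other cells (-3.11, edgeR adjusted p 0.02622). Rhd, Sphk1 and Cldn13 were among those that passed, with fold changes of -6.15 to -4.79. Of 15 monocyte and dendritic cell genes all were negative and 9 passed, with a median of -4.22. F13a1, the factor XIII A chain gene, stood at 1.329, 1.415, 5.372, 3.995 and 4.842 CPM against 161.9, 140.1, 558.1, 117.9 and 195.4 CPM (-6.22, SE 0.47, adjusted p 0.005737). Of 15 neutrophil genes 7 were lower and 0 higher (median -2.75), and of 13 multipotent progenitor genes 2 were lower, among them Plac8 (-2.62). Cd48, which marks cells that have left the stem cell state, had an adjusted p of 0.05375 (-4.94) and was highest among gated cells in m606, at 67.78 CPM.

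Megakaryocyte genes did not move together. Of 18 tested outside the gate, 1 was higher and 2 lower, with a median of -0.45, and their sum was higher in gated cells in 3 of 5 mice. Nfe2, a factor gene of platelet formation, stood at 1031, 1284, 1282, 350.6 and 742.7 CPM in gated cells against 689.5, 828.2, 661.1, 300.9 and 342.2 CPM in other cells (0.73, edgeR adjusted p 0.04719). Plek (-2.62) and F2rl2 (-4.47) were lower, with adjusted p of 0.03155 and 0.04902. Itga2b, the CD41 gene, overlapped between the groups (-0.99, adjusted p 0.2095).

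Markers of other cells that the sort could hold are given by their summed levels. Macrophage genes summed to 0 to 36.37 CPM by mouse and C1qa was at 0 in all 5. Eosinophil genes summed to at most 29.32 CPM with Ear2 at 0, and basophil and mast cell genes outside the gate to between 21.61 and 189.8 CPM against up to 614.4 CPM in other cells. Stromal and endothelial genes summed to 14.15 to 62.79 CPM in gated and 17.45 to 285.5 CPM in other cells, with Cxcl12 at 0 in gated cells. Kdr, an endothelial receptor gene that was too low to be tested, stood at 7.419, 31.86, 57.64, 0 and 0 CPM in gated cells, and Cdh5, the endothelial cadherin gene, at 13.56 CPM in m4528 and at most 0.4717 CPM in the other mice. The part of such cells in the results was not tested. Lymphoid genes summed to 11.99 to 225.1 CPM in gated and 48.95 to 215.7 CPM in other cells, and 0 of 6 passed. Mature B and plasma cell genes summed to 224.6 to 371.8 CPM in gated and 174.6 to 535.5 CPM in other cells, and 0 of 1 tested passed. Of 7 basophil and mast cell genes Il1rl1 was lower, of 3 eosinophil and 2 macrophage genes 0 passed, of 2 stromal and endothelial genes Plvap was lower, and of 17 homing and adhesion genes 1 was lower and 0 higher.

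**Figure D4:**
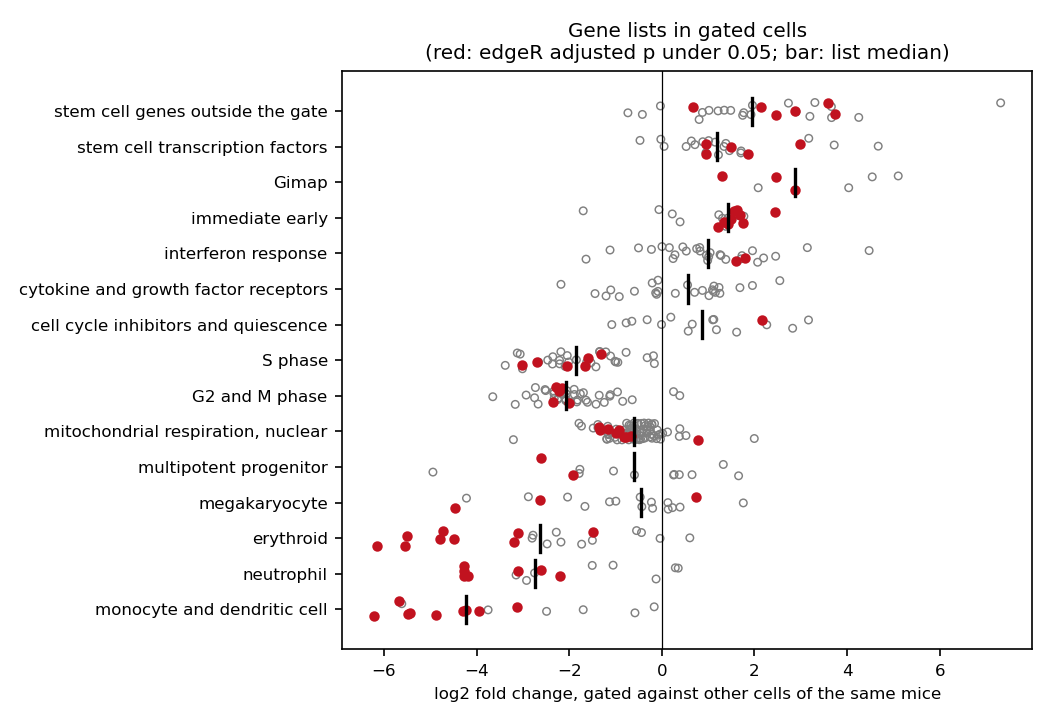
Log2 fold change between gated and other cells of the same mice (horizontal axis) for the tested genes of 15 lists; red points passed an edgeR adjusted p of 0.05 and bars give list medians. Medians run from 2.89 for Gimap to -4.22 for monocyte and dendritic cell genes.

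Some of the most separated genes were in no list. Tm4sf1, a membrane protein gene best known from endothelial cells, stood at 37.82, 97.29, 30.67, 112.9 and 24.69 CPM in gated cells and at no more than 1.882 CPM in other cells (6.63, edgeR adjusted p 0.02046). The part of endothelial cells in the Tm4sf1 level was not tested. Smtnl1, a smoothelin-like gene, stood at 96.19, 284.3, 111.2, 243.7 and 52.77 CPM against at most 4.642 CPM (6.11, adjusted p 0.02233). Plk2, a polo-like kinase gene, stood between 69.73 and 237.5 CPM against 11.88 to 26.19 CPM (2.97, adjusted p 0.009574). Gm19590, a predicted gene, reached 567.1 to 1257 CPM in gated cells against 31.05 to 222.4 CPM (3.38, adjusted p 0.03783). Osgin1, Ecscr, Tnip3, Pcp4l1, Zfp467, Paqr5 and Dst were higher by 2.85 to 4.71. On the lower side, Ighm, the immunoglobulin mu chain gene, stood between 0.8577 and 16.79 CPM against 70.34 to 419.4 CPM (-5.54, adjusted p 0.005737). Slpi, a protease inhibitor gene of myeloid cells (-5.44), Rgs10 (-4.93) and Anxa3 (-4.90) were lower as well.

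Across days, 0 of 12946 genes (0%) changed in the gated cells at an edgeR adjusted p under 0.05. The fit was a slope over the sums of the 5 mice with the count table as a term. The second table holds day 17 mice alone, so the slope came from m4539, m4533 and m4528, with 1 mouse per day. Day and mouse cannot be told apart in it. At an unadjusted p under 0.05 there were 182, and DESeq2 called 5. Without m4539 edgeR called 2 and without m4533 it called 1, both sets led by Xist, the gene in which m4528 stands apart. The lowest unadjusted p belonged to Mpo, the myeloperoxidase gene of neutrophil and monocyte progenitors. It stood at 8.405 CPM at day 3, 36.73 at day 10, and 443.7, 305.6 and 671 at day 17, a slope of 5.79 on the log2 scale per 14 days (SE 0.84, unadjusted p 0.0004815, adjusted p 1). Ly6a (0.62), Meis1 (0.16) and Ccnd2 (0.04) had slopes smaller than their SE. Of 13 neutrophil genes 12 had positive slopes, with a median of 4.24, and of 13 multipotent progenitor genes 12 were positive, with a median of 1.17, against -0.04 for all genes. Stem cell genes outside the gate had a median of -0.22. Medians of immediate early genes (-0.33), ribosomal protein genes (-0.66) and respiration genes (-0.80) were positive without the table term, at 1.89, 0.68 and 0.51, so day and table cannot be told apart for them.

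Myeloid granule transcripts in gated cells at day 17 were set beside cells of another lineage on the same plates. Erythroid cells, taken as other cells with both Klf1 and Ermap above 10 counts, numbered 17, 31 and 37 in m4528, m605 and m606 and had medians of 431288, 220019 and 267289 counts. Mpo stood at 532.1, 264.6 and 527.9 CPM in them, against 443.7, 305.6 and 671 CPM in gated cells, and at 3694, 2368 and 3012 CPM in all other cells. Elane, the neutrophil elastase gene, stood at 88.64, 103.9 and 89.08 CPM in gated cells and at 102.4, 92.83 and 84.95 CPM in the erythroid cells. In m4528 both genes were lower in gated than in erythroid cells, and in m605 and m606 both were higher. Ctsg, the cathepsin G gene, stood at 63.68, 101.9 and 209.6 CPM in gated cells and at 132.6, 79.49 and 120.4 CPM in erythroid cells. Ms4a3, a gene of granulocyte and monocyte progenitors, stood at 30.89, 42.95 and 151.1 CPM against 41.17, 30.0 and 35.12 CPM, so m606 was well above its erythroid cells. Plac8 stood at 393.4, 375.6 and 999.8 CPM against 471.4, 203.3 and 497.6 CPM. The part of free RNA in these levels was not tested. Prtn3, the proteinase 3 gene, was higher in gated than in erythroid cells of all 3 mice. It stood at 616.7, 681.2 and 539.8 CPM in gated cells and at 97.23, 52.21 and 88.56 CPM in erythroid cells. Across all 5 mice Prtn3 did not differ detectably from the other cells (-0.12, SE 0.35, edgeR adjusted p 0.9016). Its direction was not the same in all mice. Gated cells were higher in m4539 at day 3 (548.5 against 320.6 CPM) and in m4533 (413.8 against 200.6 CPM). They were lower at day 17, where all other cells of m4528, m605 and m606 stood at 1335, 975.4 and 1029 CPM. Ly6a, at 2.071, 0.4871 and 1.898 CPM, and Gimap6, at 44.92, 9.936 and 13.95 CPM, were low in the erythroid cells.

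**Figure D5:**
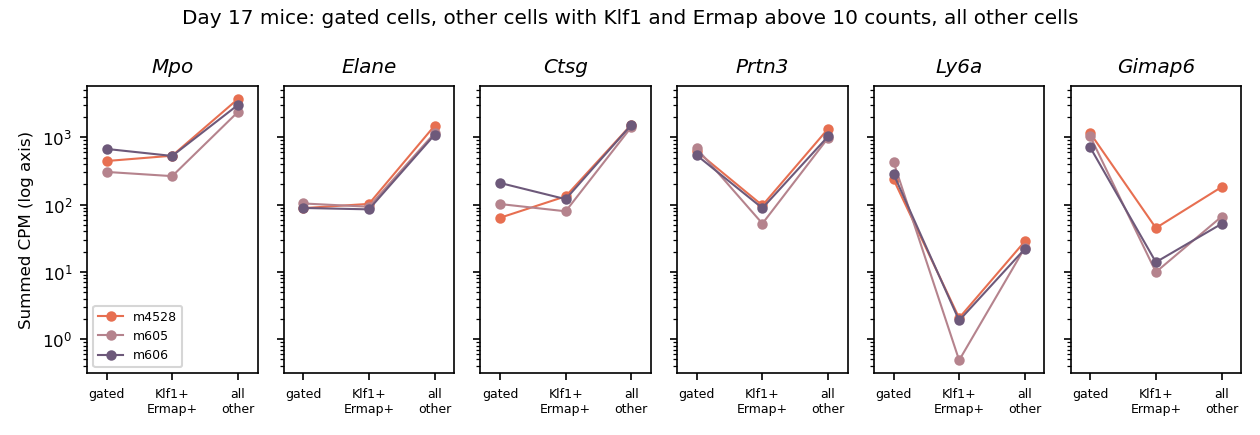
CPM of the summed counts (log axis) of 6 genes in gated cells, in cells with Klf1 and Ermap above 10 counts, and in all other cells of the 3 day 17 mice. Mpo in gated cells, at 305.6 to 671, lies nearer to the erythroid cells than to all other cells. Prtn3 in gated cells stands above the erythroid cells and below all other cells, while Ly6a and Gimap6 stand above both.

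Whether the gated-to-other contrast differed between the 2 earlier and the 3 day 17 mice was tested gene by gene. Of 13429 genes 0 (0%) passed, with 635 at an unadjusted p under 0.05 and a lowest adjusted p of 0.899 in edgeR. A difference of this kind was not detectable with 5 mice.

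Gated cells differed among themselves in ways the gate left free, described here without a test because the groups come from the gate counts. Cells were divided by the number of stem genes held, 3, 4 or 5 to 7. Cdk6 stood at 124.9, 69.04 and 60.52 CPM over these classes in m4539, at 213.8, 81.86 and 51.33 CPM in m4533 and at 270.4, 56.53 and 100.7 CPM in m4528, so it was highest in the cells with 3 genes in each. Cdkn1c stood at 322.5, 404 and 389.7 CPM in m4539, at 71.5, 405 and 580.6 CPM in m4533 and at 114, 104.2 and 219.2 CPM in m4528. It was higher with 5 to 7 genes than with 3 in each of these mice, without a steady order. Ly6a went from 99.58 to 349.1 CPM between the cells with 3 and with 5 to 7 genes in m4533 and from 191.1 to 311.8 CPM in m4528, but from 185.9 to 84.82 CPM in m4539. Mki67 averaged 133, 15.55 and 16.2 CPM over mice in the 3 classes, and the first value came mainly from m4528, at 302.7 CPM. Mouse m605 had too few gated cells for these levels, and m606 entered only those of 4 and more genes.

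The gated cells with Pf4 above 10 counts differed from the remaining gated cells of their mouse in both directions among megakaryocyte genes. In m4539, with 11 such cells against 160 without, Itga2b stood at 168.7 against 36.76 CPM, Gata1 at 69.06 against 33.03 CPM and Gp9, a platelet glycoprotein gene, at 92.56 against 59.27 CPM. In m4533, with 20 against 46 cells, the same genes stood at 115.5 against 48.66, 63.96 against 27.96 and 108.8 against 37.3 CPM. Gp1bb, which the gate bars above 10 counts in a cell with Pf4, stood at 8.927 against 41.62 CPM and 12.54 against 76.53 CPM. Lower in the Pf4 cells of both mice were Itgb3, an integrin gene, at 0.4698 against 13.54 and 0.6428 against 45.25 CPM, and Treml1, at 0 against 8.872 and 3.696 against 29.09 CPM. Gp5 and Ppbp were lower in both as well. The gated cells with Gp1bb above 10 counts, 5 in m4539 and 2 in m4533, all fall among the cells without Pf4. Lower values of genes that go with Gp1bb can thus follow from the rule, and its part in them was not tested. Vwf did not go the same way in both mice, at 1.879 against 49.13 CPM in m4539 and 34.55 against 26.38 CPM in m4533. Hlf was kept in the Pf4 cells, at 258.4 and 545.1 CPM, and their Pf4 level, 379.6 and 262.6 CPM, was below the 1848 and 1334 CPM of the non-gated cells with Pf4. Mki67 was lower in the Pf4 cells of both mice, at 16.44 against 52.15 and 2.25 against 21.49 CPM.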

How the data were processed

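Per the labels, Lin- Tom+ single cells were sorted into plates and sequenced at transcript 3′ ends. The authors deposited raw counts per gene and cell barcode in 2 tables, with GRCm38 named in the submitters' processing notes. Not given in the sources used here were the aligner, the counter and whether a count is a read or a molecule. Both tables share 22842 genes. Of 9357 barcodes, 1010 held at least 500 genes and 10000 counts and were kept, and doublets were not removed. Counts were summed by mouse and gate, since cells are not replicates, and tested with edgeR 4.0.16 in R 4.3.3 (quasi-likelihood test, TMM scaling, filterByExpr, Benjamini-Hochberg adjustment). The contrast of gated with other cells had the mouse as a block, because both come from the same animal. The slope over day, in gated cells alone, had the table as a term and so rested on the mice of the first table. DESeq2 1.42.0 and limma 3.58.1 were alternatives. Shares per cell were taken after thinning to 20000 counts, which left out 1 gated and 6 other cells of m605. The scripts were tested on simulated data. Intervals are exact (Clopper-Pearson) and cover counting error only. Depth per mouse was 1001177 to 23318596 summed counts in gated cells and 5615265 to 55319372 in other cells, so m605 and m606 are the least precise.

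The members and gene lists were chosen with earlier results of these data known. Named genes are, in each list, at most 4 per direction with the largest fold change among those past an adjusted p of 0.05 and changed the same way in every mouse. Outside the lists they are at most 12 per direction by the same rule with a mean of at least 50 CPM in the higher class, and a panel of genes is given whatever its values. Other called list members are named after their values were seen. Gene coordinates are from the GENCODE annotation of GRCm38 and promoters from RefSeq, GRCm38.p6. Listed genes absent from either table were not analysed here. Some genes that the naming rule selects are not reported here.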

Additional observations from a re-analysis of the deposited data

Results flagged for a closer look

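In 11 of 118 genes or quantities checked, 1 mouse stood far from the other 4 in its log2 ratio of gated to other cells (pseudocount 1 CPM), where chance alone gives about 5% of groups. Mouse m605, with 16 gated cells, stood apart in 5 of them. Its ratio for Hoxa9 was 2.89 against 1.34 to 1.70 in the other mice. For Txnip it was 3.34 against 1.56 to 2.05. For Egr1 it was 3.26 against 2.07 to 2.40. For Cdkn1c it was 6.21 against 2.12 to 2.88. Its ratio for Ldha was -1.24 against -0.70 to -0.52.

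Mouse m4539, with 19 other cells, stood apart in 3. Rhd had a ratio of -7.20 there against -5.42 to -4.74, and Anxa3 of -2.66 against -5.47 to -4.72. The gate gene Cebpe was at 0.0438 in m4539 against -4.69 to -3.59, with 0.1781 CPM in its other cells. In m606 the ratio of Fcgr3 was -3.58 against -5.71 to -5.15, and that of BC035044 was -1.51 against -5.15 to -4.82. In m4528 the ratio of Ccr2 was -5.73 against -4.24 to -4.12. The signs were the same in all mice apart from Cebpe in m4539.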

How the results depend on the processing

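The number of genes called between gated and other cells depended on the settings more than the direction of the named genes did. Against 347 called, DESeq2 called 2397 (48.6% of them higher, against 38.33%). Taking other cells with at most 1 stem gene gave 44 (70.45% higher), with 1 such cell in m4539 and 8 in m4533. A gate at 4 stem genes gave 23, without m605, whose 7 gated cells fell below the minimum of 10. A gate with no lineage gene gave 123, and day 17 mice only 0. The mixed plate added as a further unit gave 935, but its cells come from m605 and m606, so it is no independent replicate. Leaving out 1 mouse gave 2 to 349. The mouse block comes from the design, since gated and other cells share an animal; with no replicate block edgeR called 244, of which 183 were among the 347. Without plate 9 of m4528, a setting chosen after seeing the data, 347 were called, 305 of them shared. The other settings stayed within 1.5 times. Over day, DESeq2 called 5 and the fit with no filter on low counts 4 against 0, and leaving out 1 mouse gave 0 to 2. The share of gated cells at day 17 was lower than earlier by 37.19 to 59.65 points over the gates and filters tried. Leaving out 1 mouse gave -71.54 to -43.23 points for that share, -38.77 to -31.56 points for cells with cycle genes, and -821 to -739.3 for genes per cell. The difference in cells with cycle genes was -21.03 points with 1 gene sufficing, -24.93 at 50000 counts and -42.17 without thinning. The genes per cell differed by -1914 without thinning, where the deeper other cells were not brought to one depth. The cause of the other changes was not tested. Low counts in the gated cells of m605 and m606 limit what can be detected.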

Other observations

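On the plate that mixed cells of m605 and m606, which entered no test by mouse, 15 of 93 kept cells passed the gate and 73.33% of these held at least 5 stem genes. Ly6a stood at 121.1 CPM in its gated and 1.346 CPM in its other cells, Gimap6 at 763.8 and 49.8 CPM, Lmo2 at 2715 and 792.2 CPM, and Hoxa10 at 34.31 and 14.17 CPM. Egr1 stood at 1515 and 189.2 CPM, Junb at 1633 and 258.4 CPM and Txnip at 590.3 and 166.8 CPM. Lower in gated cells were Rrm2, at 67.6 and 375.3 CPM, Ccnb1, at 3.027 and 83.1 CPM, F13a1, at 1.009 and 119.2 CPM, and Elane, at 101.9 and 1406 CPM. Hoxa7 went the other way from the 5 mice, at 1.009 CPM in gated and 36.98 CPM in other cells. Ecscr did so too, at 3.027 and 5.668 CPM, and Aldoc was close to level, at 6.054 and 4.463 CPM.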
